A study of Mus musculus with 12 samples.

Results

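The subunits of respiratory complexes II to V were followed in mouse cerebellum with and without Ciz1, a protein of the nucleus with a known role in DNA replication. Members were the genes named Sdha, Sdhb, Sdhc, Sdhd or Cyc1, or with a symbol that begins with Uqcr, Cox4, Cox5, Cox6, Cox7, Cox8 or Atp5, and each gene was read from its brightest array row with a single gene symbol. This gave 48 of the 22180 genes tested: 4 for complex II, 9 for complex III, 17 for complex IV and 18 for complex V. The rule also takes in 2 pseudogenes by their names, Uqcrh-ps1 and Atp5c1-ps, so 46 members are subunit genes or their close relatives. Cox6c and Uqcr10, which encode subunits of complexes IV and III, share their rows with another symbol and were not analysed here.

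RNA from the cerebellum of 12 mice was hybridised to Affymetrix arrays that cover whole transcripts, with 1 array for each mouse. The 4 groups were wild-type males, wild-type females, Ciz1-/- males and Ciz1-/- females, with 3 mice in each. One label field gives the controls as Ciz1+/-, while their source name says wild type and the extraction protocol Ciz1+/+. Age is 10 months in the protocol and 6 to 10 months in the series design. How the Ciz1 allele was made is not given in the sources used here, and no allele or treatment shared by all groups is named. Values are log2 of the deposited intensity. Array medians lay between 96.5 and 98.7 on the linear scale, and across genes, the difference between 2 arrays of 1 group spread with an SD of 0.193 to 0.215 (log2). The targeted gene, Ciz1, had a log2 level of 8.76 ± 0.08 (SD, n = 6) in the controls. In Ciz1-/- mice it was 7.13 ± 0.18 (SD, n = 6), and the ranges did not overlap. Markers of granule cells (10 of 10 tested, mean level 10.43 to 10.60 over the arrays) and Purkinje cells (7 of 10, 11.51 to 11.70) were bright on every array. In whole tissue, fewer cells of a type and less RNA per cell cannot be told apart.

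The respiratory chain sits in the inner membrane of mitochondria. Complex II, succinate dehydrogenase, passes electrons from succinate to ubiquinone and is also an enzyme of the citrate cycle. Complex III moves the electrons on to cytochrome c, complex IV hands them to oxygen, and complex V, the ATP synthase, uses the proton gradient to make ATP. Neurons of the cerebellum depend on this chain for the ATP that drives their ion pumps. Complex II is encoded wholly in the nucleus, while the other complexes also hold subunits made inside the mitochondrion. Of the genes of mitochondrial DNA, 0 of the 15 listed were tested here.

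Nuclear factors such as NRF1, the ETS factor GABPA, YY1 and the ERR receptors are known to act at promoters of these subunit genes. The sequences before the start of 4 members are therefore shown. They are Cox6a1 and the complex II subunits for which a promoter was held, since Sdhd and Sdha lay on opposite sides of 0 between genotypes. Cox6a1 carries the most matches of the 4 if both matches of an overlapping pair are counted, and otherwise as many as Sdha. Any link between these matches and the genotype differences was not tested. Capitals mark matches, on either strand, to GCNTGCGC (the core of the NRF1 site), CCGGAAG (ETS), AAGATGGCG (YY1) and TCAAGGTCA (ERR). Each stretch is the 200 bases just before the RefSeq start of the gene in build GRCm38.p6, written 5′ to 3′ on the strand of the gene.
Sdha, chr13:74350241-74350440, minus strand: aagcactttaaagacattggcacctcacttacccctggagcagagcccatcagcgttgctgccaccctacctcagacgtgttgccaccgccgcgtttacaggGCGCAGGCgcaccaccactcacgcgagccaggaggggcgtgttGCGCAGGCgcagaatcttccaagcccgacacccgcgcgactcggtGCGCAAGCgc
Sdhb, chr4:140961071-140961270, plus strand: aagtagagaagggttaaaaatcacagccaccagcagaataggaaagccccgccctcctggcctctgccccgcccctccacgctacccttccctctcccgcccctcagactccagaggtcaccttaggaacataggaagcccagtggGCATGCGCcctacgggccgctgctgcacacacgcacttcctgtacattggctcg
Sdhd, chr9:50603850-50604049, minus strand: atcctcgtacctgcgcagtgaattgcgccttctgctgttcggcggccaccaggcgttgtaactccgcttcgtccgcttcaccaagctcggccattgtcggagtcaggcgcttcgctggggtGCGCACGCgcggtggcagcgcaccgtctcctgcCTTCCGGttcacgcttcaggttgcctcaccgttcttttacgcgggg
Cox6a1, chr5:115348959-115349158, minus strand: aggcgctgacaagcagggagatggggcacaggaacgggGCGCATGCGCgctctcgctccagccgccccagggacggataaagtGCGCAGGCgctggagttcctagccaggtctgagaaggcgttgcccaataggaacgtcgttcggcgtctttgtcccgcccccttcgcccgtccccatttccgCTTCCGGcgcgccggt
The NRF1 core stood 3 times in the stretch of Sdha, 1 time in those of Sdhb and Sdhd, and in Cox6a1 as 1 overlapping pair and 1 further match. The ETS match was written in Sdhd and Cox6a1 on the other strand. Sdhb and Sdhd each had 1 more match after the start, outside the stretch shown.

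RefSeq promoter windows, from 250 bases before to 50 after the start, were held for 35 of the 48 members, in 38 windows. The NRF1 core was present in 14 of these 38 windows (36.8%), against 9.95% of all 32851 windows, and the ETS letters in 13 (34.2% against 8.86%). The YY1 letters stood in 2 windows (5.26% against 1.40%), those of Atp5j and Atp5j2, and the ERR letters in 2 (5.26% against 0.423%), those of Sdhd and Atp5g3. At least 1 of these 4 motifs was found in 20 windows (52.6% against 18.3%). A run in which the core overlaps its own reverse complement, as in the first match of Cox6a1, was in the windows of Atp5g2, Atp5k, Cox6a1 and Uqcrc1 (10.5% against 0.971%). Of 3 general promoter motifs also searched on both strands, GGGCGG (Sp1) was in 36.8% against 35.7%, CCAAT (NF-Y) in 52.6% against 37.4%, and TATAAA in 10.5% against 13.6%. These shares count letters, carry no test and were not adjusted for base content. The median share of G and C was 56.5% in the windows of the members and 52.7% in all windows.

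Over both sexes, 0 of 48 members passed the test for genotype (limma, p adjusted by Benjamini-Hochberg over all genes, threshold 0.05), where 0.0225% of all genes passed. Differences were small: from -0.27 for Cox8b to 0.21 for Cox7b2 on the log2 scale. There were 28 members higher and 20 lower in Ciz1-/- on average, with a median difference of 0.037, against a median of -0.001 and 49.6% higher over all genes. The oligodendrocyte markers were lower in Ciz1-/- (13 of 13), so a fit with their level cannot cleanly separate it from genotype. In such a fit, a choice made after the data were seen, the median of the members was -0.004. In the main fit without Ciz1-/- male 2 the median was 0.016. It was 0.020 without Ciz1-/- female 1, 0.021 without wild-type male 2 and 0.022 without wild-type female 2. At an unadjusted p under 0.05 there were 7 members, 4 higher and 3 lower, which is 14.6% of them against 9.26% of all genes. The 95% interval of the difference lay wholly within 0.3 of 0 (1.23-fold) for 43 of 48 members and within 0.2 (1.15-fold) for 28. The 5 with wider limits were Atp5c1-ps, Atp5e, Atp5mpl, Cox7b2 and Cox8b.

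**Figure D1:**
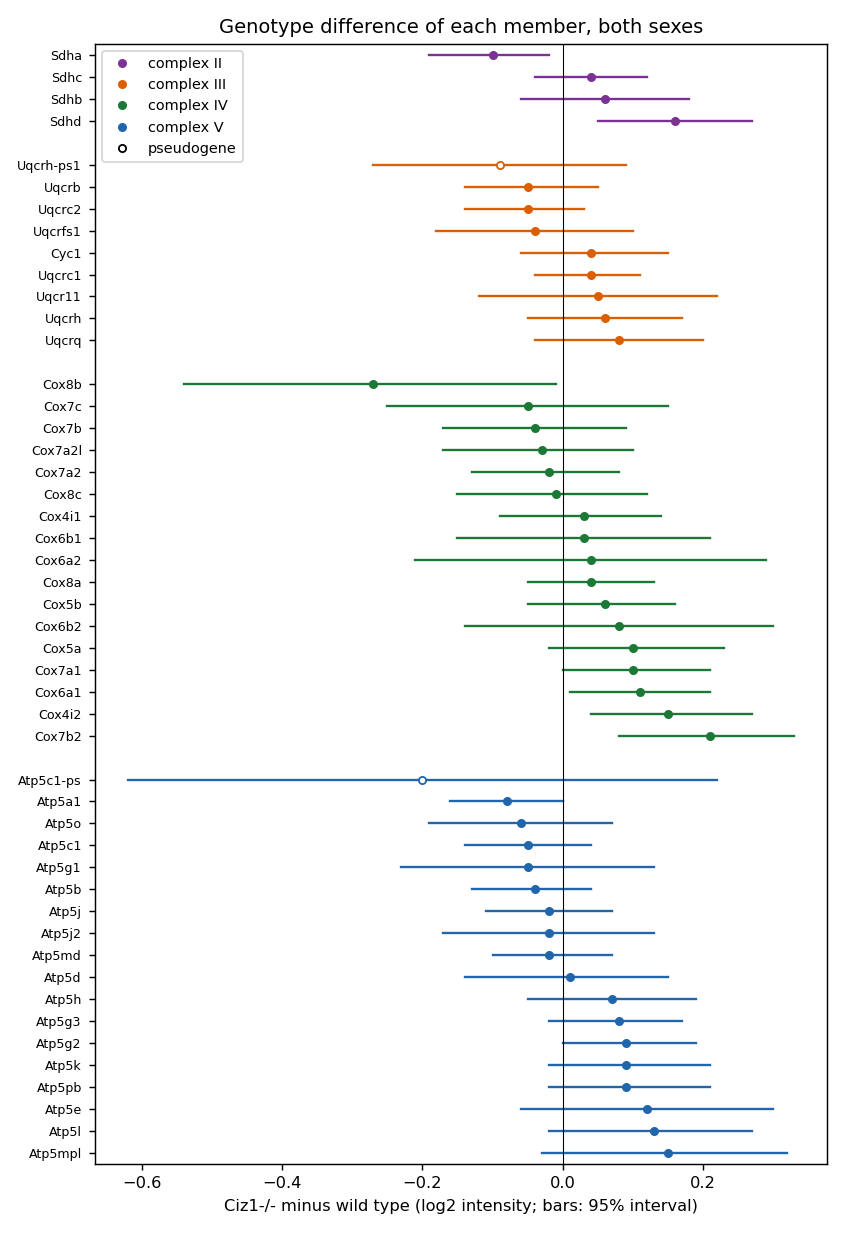
Difference between Ciz1-/- and wild-type cerebellum for each of the 48 members over both sexes, on the log2 intensity scale (points), with the 95% interval of the limma fit (bars), grouped by complex; open points are the 2 pseudogenes. Most intervals include 0, and 7 exclude it: Sdhd, Cox4i2, Cox7b2 and Cox6a1 above, Sdha, Cox8b and Atp5a1 below.

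Complex II held members on both sides of 0. Sdhd encodes a small membrane anchor of the complex, which holds the site where ubiquinone is reduced. Its log2 level was 9.61, 9.58 and 9.57 in wild-type males, 9.62, 9.54 and 9.42 in wild-type females, 9.62, 9.64 and 9.82 in Ciz1-/- males and 9.73, 9.69 and 9.81 in Ciz1-/- females. All 6 Ciz1-/- mice lay above all 6 wild-type mice, narrowly, since the highest wild-type and the lowest Ciz1-/- level both round to 9.62. Sdhd was the 1 member of 48 without overlap (2.08%), where 0.550% of all genes had none. The difference was 0.16 (SE 0.05, 95% interval 0.05 to 0.27), or 1.12-fold, and did not pass (limma adjusted p = 0.411). It stayed between 0.13 and 0.18 when any single array was left out, was 0.15 once the choroid plexus markers entered the fit as a covariate, and was 0.19 with the oligodendrocyte markers in their place.

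Sdha encodes the flavoprotein that oxidises succinate. It stood at 11.29, 11.31 and 11.27 in wild-type males, 11.17, 11.19 and 11.22 in wild-type females, 11.17, 11.23 and 11.24 in Ciz1-/- males and 11.14, 11.06 and 11 in Ciz1-/- females. Within each sex the Ciz1-/- mice lay below the wild-type mice, and across sexes wild-type females overlapped with Ciz1-/- males. The difference was -0.10 (SE 0.04, interval -0.19 to -0.02; limma adjusted p = 0.484). The other catalytic subunit, the iron-sulfur protein Sdhb, differed by 0.06 (SE 0.06, interval -0.06 to 0.18), and the second anchor, Sdhc, by 0.04 (SE 0.04, interval -0.04 to 0.12). Sdhb spread widely among Ciz1-/- females, at 9.43, 9.11 and 9.33, against 9.14 to 9.27 in the wild-type mice.

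**Figure D2:**
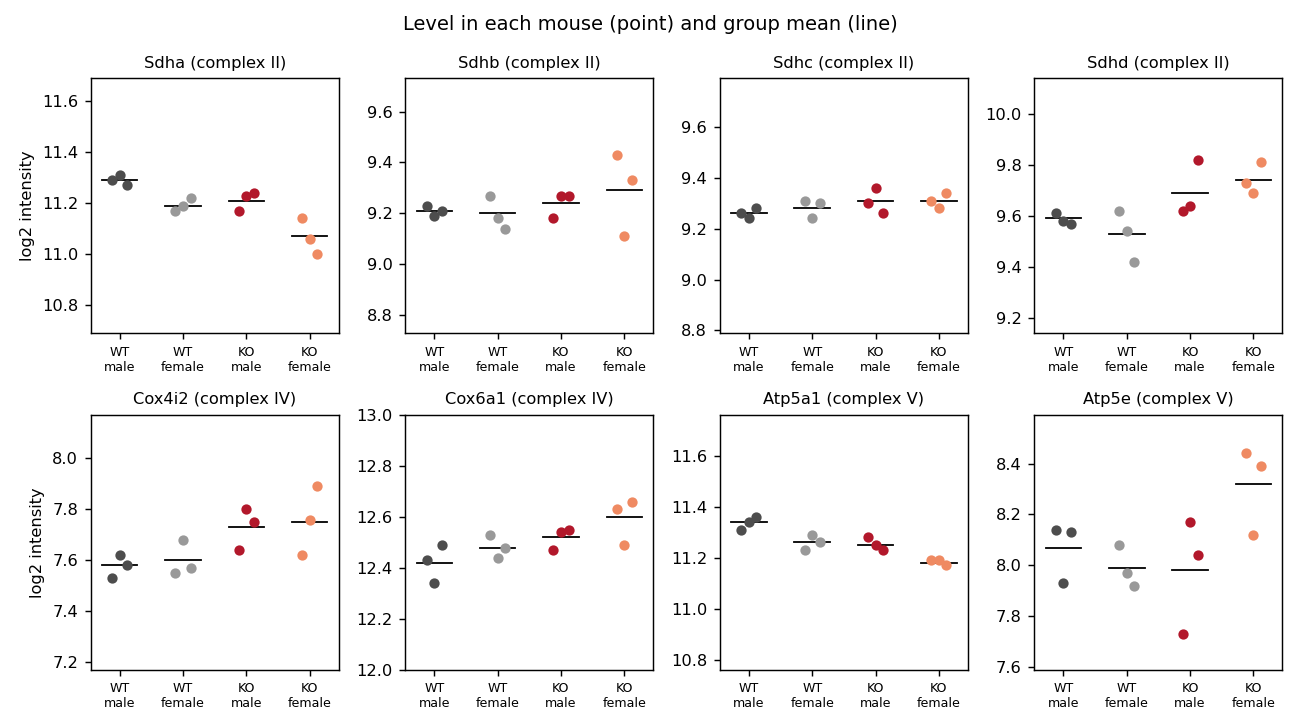
Log2 intensity of the 4 complex II subunits, of Cox4i2 and Cox6a1 of complex IV and of Atp5a1 and Atp5e of complex V in each mouse (points), with the group mean (line); every panel spans 1 log2 unit. Sdhd is higher and Sdha lower in Ciz1-/- mice of each sex. For Atp5e, 2 of 3 Ciz1-/- females (8.12 to 8.44) lie above all mice of the other groups. Its dimmer row, not shown, differed by -0.05 in females.

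Complex III spanned the narrowest range of differences of the 4 complexes. Its 8 subunit genes differed by -0.05 to 0.08, 5 higher and 3 lower, with a median of 0.041. An unadjusted p under 0.05 was found for 0 of 8 (0%, against 9.26% of all genes), too few genes to set against that share. The core proteins of the matrix side, Uqcrc1 and Uqcrc2, differed by 0.04 (SE 0.03) and -0.05 (SE 0.04; limma adjusted p = 0.693). Uqcrc1 and Atp5a1 were the most even members, each with a within-group SD of 0.02. Uqcrc1 stood at 10.58 to 10.65 in wild type and 10.61 to 10.67 in Ciz1-/-. The electron carriers, cytochrome c1 (Cyc1) and the Rieske iron-sulfur protein (Uqcrfs1), differed by 0.04 and -0.04. Among the small subunits Uqcrq differed by 0.08 (SE 0.05; limma adjusted p = 0.698), Uqcrh by 0.06, Uqcr11 by 0.05 and Uqcrb by -0.05. The pseudogene Uqcrh-ps1 differed by -0.09 (SE 0.08).

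In complex IV, 11 of 17 members were higher (64.7%, against 49.6% of all genes) and 6 lower, with a median of 0.036. An unadjusted p under 0.05 was found for 4 of the 17 (23.5%, against 9.26% of all genes), again few genes to set against that share. They include Cox7b2 and Cox8b, on rows in the lowest 10.2% and 29.7% of brightness. Several subunits of complex IV exist as pairs, with 1 form used in most tissues and another in few. Cox6a1, the widely used form of a subunit that binds regulatory nucleotides, was 12.43, 12.34 and 12.49 in wild-type males, 12.53, 12.44 and 12.48 in wild-type females, 12.47, 12.54 and 12.55 in Ciz1-/- males and 12.63, 12.49 and 12.66 in Ciz1-/- females. In all, 4 of 6 Ciz1-/- mice lay above every wild-type mouse, and the groups overlapped. The difference was 0.11 (SE 0.05, interval 0.01 to 0.21; limma adjusted p = 0.522). Its muscle form, Cox6a2, differed by 0.04 (SE 0.11), with 0.23 in males and -0.16 in females, and ranged from 7.09 to 7.85 among the 3 Ciz1-/- females alone.

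Cox4i2, a form of subunit 4 that hypoxia induces and that pericytes of brain vessels express, was 7.53, 7.62 and 7.58 in wild-type males, 7.55, 7.68 and 7.57 in wild-type females, 7.64, 7.80 and 7.75 in Ciz1-/- males and 7.62, 7.76 and 7.89 in Ciz1-/- females. The males did not overlap and the females did. The difference was 0.15 in males and 0.15 in females, and 0.15 over both (SE 0.05, interval 0.04 to 0.27; limma adjusted p = 0.462). With the oligodendrocyte level as a covariate it was 0.09 (limma adjusted p = 0.878). The mean level of the 10 endothelial markers, whose cells lie beside pericytes, was 7.52 to 7.71 in wild type and 7.5 to 7.80 in Ciz1-/-, and its part in the result was not tested. The widely used form, Cox4i1, differed by 0.03 (SE 0.05, interval -0.09 to 0.14).

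The remaining pairs of complex IV were close to 0 in their widely used forms: Cox6b1 differed by 0.03 (SE 0.08), Cox7a2 by -0.02 (SE 0.05), Cox7b by -0.04 (SE 0.06) and Cox8a by 0.04 (SE 0.04). Cox7a2l, which helps to join complexes into supercomplexes, differed by -0.03 (SE 0.06). Of the forms known from other tissues, Cox7a1, of heart and skeletal muscle, differed by 0.10 (SE 0.05; limma adjusted p = 0.552), with 5 of 6 Ciz1-/- mice above every wild-type mouse, and Cox6b2, of testis, by 0.08 (SE 0.10). Cox7b2 and Cox8c, also of testis, had rows in the lowest 10.2% and 11.3% of brightness and were not shown to lie above background. Cox7b2 differed by 0.21 (SE 0.06, interval 0.08 to 0.33; limma adjusted p = 0.339) and had the smallest p of all members. Cox8c differed by -0.01 (SE 0.06). The subunits without a pair, Cox5a, Cox5b and Cox7c, differed by 0.10 (SE 0.06), 0.06 (SE 0.05) and -0.05 (SE 0.09).

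Cox8b, a form of heart, muscle and brown fat, had the largest difference of the subunit genes, -0.27 (SE 0.12, interval -0.54 to -0.01; limma adjusted p = 0.531), on a row in the lowest 29.7% of brightness. It stood at 6.31, 5.84 and 5.76 in wild-type males, 5.98, 6.53 and 6.07 in wild-type females, 5.90, 5.91 and 5.77 in Ciz1-/- males and 5.69, 6.03 and 5.56 in Ciz1-/- females. Wild-type male 1 and wild-type female 2 were high, and the groups overlapped. The mean level of 16 choroid plexus markers on the same arrays was 7.85, 6.81 and 6.80 in wild-type males, 6.54, 7.71 and 7.14 in wild-type females, 6.51, 7.29 and 6.57 in Ciz1-/- males and 6.41, 7.46 and 6.66 in Ciz1-/- females. The choroid plexus is secretory tissue of the ventricles that can come along in dissection; all 16 of its tested markers were lower in Ciz1-/- on average, with 0 of 16 past the threshold (limma), 2 at an unadjusted p under 0.05 (12.5%, against 9.26% of all genes) and a median of -0.25. With that level as a covariate the Cox8b difference was -0.15 (limma adjusted p = 0.603), and with the oligodendrocyte level -0.55 (limma adjusted p = 0.606). The part of the choroid plexus or of oligodendrocytes in the Cox8b difference was not tested.

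Complex V had 9 of 17 subunit genes higher and 8 lower, with a median of 0.008. Of these 17, 1 had an unadjusted p under 0.05 (5.88%, against 9.26% of all genes), also few genes to set against that share. In the catalytic head, Atp5a1 (subunit alpha) was 11.31, 11.34 and 11.36 in wild-type males, 11.23, 11.29 and 11.26 in wild-type females, 11.28, 11.25 and 11.23 in Ciz1-/- males and 11.19, 11.19 and 11.17 in Ciz1-/- females. Within each sex Ciz1-/- lay below wild type, while wild-type females and Ciz1-/- males overlapped. The difference was -0.08 (SE 0.04, interval -0.16 to 0.00; limma adjusted p = 0.522), 1.06-fold. Its partner Atp5b (beta) differed by -0.04 (SE 0.04, interval -0.13 to 0.04), and the central stalk subunits Atp5c1 (gamma), Atp5d (delta) and Atp5e (epsilon) by -0.05, 0.01 and 0.12.

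The c ring of the membrane part, which turns with the flow of protons, is encoded by 3 genes whose mature protein is the same. Atp5g2 differed by 0.09 (SE 0.04, interval 0.00 to 0.19; limma adjusted p = 0.543), and 5 of 6 Ciz1-/- mice lay above every wild-type mouse. Atp5g3 differed by 0.08 (SE 0.04, interval -0.02 to 0.17) and Atp5g1 by -0.05 (SE 0.08, interval -0.23 to 0.13). How far the probes of these 3 genes share sequence was not known here. In the outer stalk, Atp5pb (b) differed by 0.09 (SE 0.05), Atp5h (d) by 0.07, Atp5j (F6) by -0.02 and Atp5o (OSCP) by -0.06. In the membrane part, Atp5mpl differed by 0.15 (SE 0.08), Atp5l (g) by 0.13 (SE 0.07), Atp5k (e) by 0.09 (SE 0.05), Atp5j2 (f) by -0.02 and Atp5md by -0.02. The pseudogene Atp5c1-ps, in the lowest 9.18% of brightness, had the widest spread of all members, a within-group SD of 0.39, and differed by -0.20 (SE 0.19).

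Within males, 0 of 48 members passed (limma; 0.0225% of all genes did), 0 had an unadjusted p under 0.05 (5.42% of all genes), and the median difference was 0.005, with 25 higher and 23 lower. Cox4i2 (0.15, SE 0.08), Cox6a1 (0.10, SE 0.06) and Sdhd (0.11, SE 0.07) were the higher members with the smallest p, and Atp5c1-ps (-0.53, SE 0.27), Atp5c1 (-0.11, SE 0.06) and Uqcrb (-0.10, SE 0.06) the lower ones, all with limma adjusted p from 0.923 to 0.943. Single arrays moved these values: Sdhd was 0.04 without Ciz1-/- male 3, and Cox6a1 0.06 without wild-type male 2. Atp5c1-ps lay between -0.78 and -0.21 when 1 array was left out, at -0.21 without Ciz1-/- male 1 and -0.24 without wild-type male 3. Ranges did not overlap for 6 members (12.5%), against 10.3% of all genes: Sdhd and Cox4i2 were higher, and Sdha, Uqcrc2, Atp5a1 and Atp5b lower. The share is near that of all genes.

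Within females, 0 of 48 passed (limma; 0.0225% of all genes did), and 8 had an unadjusted p under 0.05, 6 higher and 2 lower, or 16.7% against 8.49% of all genes. The median difference was 0.059, with 33 members higher and 15 lower, against 0.002 and 50.6% higher over all genes. In females the genes listed for complex I (27 of 33 higher, median 0.088) and the assembly factors (34 of 37, 0.078) leaned further the same way. Genes of the citrate cycle (10 of 17, 0.025) and of mitochondrial biogenesis and carriers (11 of 26, -0.004) did not lean as far. Without Ciz1-/- female 1 the median of the members was 0.035, and with the oligodendrocyte covariate 0.029. Ranges did not overlap for 12 members (25.0%), 10 of them higher, against 14.9% of all genes. Atp5e, the epsilon subunit, was 8.08, 7.97 and 7.92 in wild-type females and 8.44, 8.12 and 8.39 in Ciz1-/- females, a difference of 0.33 (SE 0.12, interval 0.07 to 0.58; limma adjusted p = 0.50). It was 0.10 (limma adjusted p = 0.934) with the oligodendrocyte level as a covariate and 0.14 with the mean of its rows, which differed. Atp5l, of the membrane part, was 8.28, 8.23 and 8.10 against 8.59, 8.42 and 8.35, a difference of 0.25 (SE 0.10, interval 0.04 to 0.46; limma adjusted p = 0.524). Sdhd differed by 0.21 (SE 0.07), Atp5mpl by 0.25 (SE 0.11), Atp5pb by 0.18 (SE 0.08) and the dim Cox7b2 by 0.38 (SE 0.08), with limma adjusted p from 0.241 to 0.578. On the lower side were Cox8b (-0.43, SE 0.17, and -0.27 without wild-type female 2) and Sdha (-0.13, SE 0.06), and Atp5a1 (-0.08, SE 0.05) was next.

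**Figure D3:**
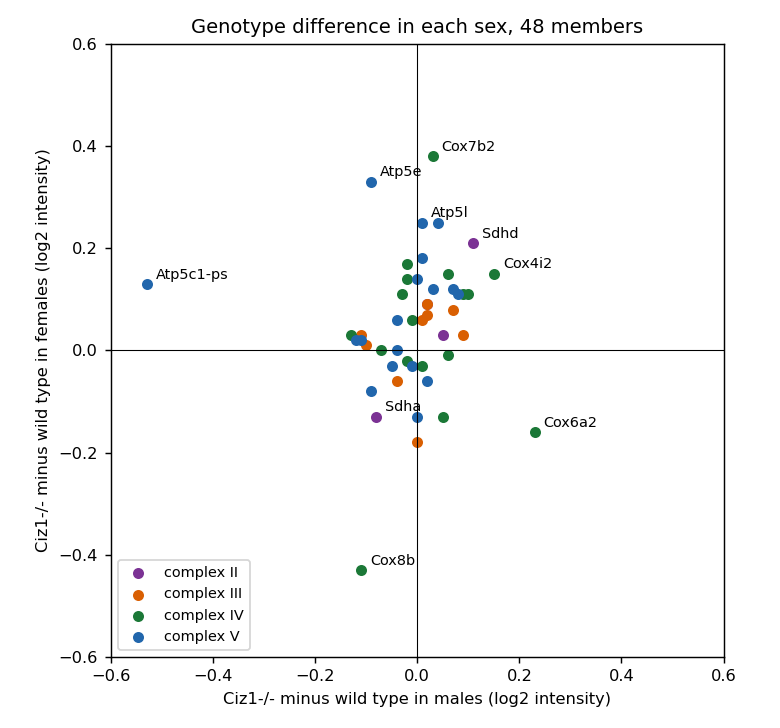
Difference between Ciz1-/- and wild type in males (horizontal axis) and in females (vertical axis) for the 48 members, on the log2 intensity scale, coloured by complex. Members spread further above 0 on the female axis (median 0.059) than on the male axis (median 0.005); Atp5e, Cox7b2 and Cox8b lie far from 0 in females, and the pseudogene Atp5c1-ps in males.

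The difference between the sexes in the effect of genotype was tested for every member, and 0 of 48 passed (limma; 0 of 22180 genes did, 0%). At an unadjusted p under 0.05 there were 2 members, Cox7b2 (0.35, SE 0.11) and Atp5e (0.41, SE 0.17), or 4.17% against 4.82% of all genes, with limma adjusted p of 0.990 and 0.998. The signed difference, female effect minus male effect, was above 0 for 35 of 48 members (72.9%), with a median of 0.055, against 52.2% and 0.007 over all genes. It counts direction, not size: Atp5c1 (-0.11 in males, 0.02 in females) is among the 35. The signed difference was above 0 for 25 of 33 genes listed for complex I and 30 of 37 assembly factors as well. For genes of biogenesis and carriers it was 17 of 26, and for the citrate cycle 9 of 17. The sexes were therefore not shown to differ in any member, and the next in order were Atp5l (0.24, SE 0.13), Cox8a (0.14, SE 0.08) and Atp5c1-ps (0.65, SE 0.38).

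Females against males over genotype likewise gave 0 of 48 members past the threshold (limma; 0.0361% of all genes passed) and 1 at an unadjusted p under 0.05, or 2.08% against 7.93% of all genes. That 1 was Sdha, lower in females by -0.12 (SE 0.04, interval -0.21 to -0.03; limma adjusted p = 0.570). Atp5o (-0.13, SE 0.06) and Uqcrc2 (-0.08, SE 0.04) were also lower, and Cox6b2 (0.20, SE 0.10), Atp5d (0.13, SE 0.07) and Cox7a1 (0.08, SE 0.05) higher on average. The ranges of the sexes overlapped for all 48 members, while 0.469% of all genes had none. The X-linked member Cox7b differed by 0.00 (SE 0.06) in its brighter row, used here, and by -0.11 in its dimmer row.

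Read across the members, the arrays differed little. The median deviation of the 48 members from their own means was -0.038 to 0.021 in wild-type males, -0.051 to -0.007 in wild-type females, -0.030 to 0.033 in Ciz1-/- males and -0.011 to 0.055 in Ciz1-/- females. Ciz1-/- females 1 and 3 were highest, at 0.042 and 0.055, wild-type female 2 was lowest, and the ranges of all 4 groups overlapped. For complex IV alone, the 3 Ciz1-/- females lay at 0.021 to 0.076 and the 6 wild-type mice at -0.055 to 0.000. Ciz1-/- males, at -0.039 to 0.031, overlapped with both. For complexes II, III and V the ranges of Ciz1-/- females and wild type overlapped. Gene by gene within females, ranges did not overlap for 4 of 17 subunit genes of complex IV (23.5%, against 14.9% of all genes). The counts were 2 of 4 (50%) for complex II, 1 of 8 (12.5%) for complex III and 5 of 17 (29.4%) for complex V. How often a list of genes separates as complex IV did was not computed. The oligodendrocyte markers moved with genotype: their mean level was 9.03 to 9.23 in wild type, 8.77 to 9.16 in Ciz1-/- males and 8.72 to 8.82 in Ciz1-/- females, and 13 of 13 tested markers were lower in Ciz1-/- (median -0.28), 1 of them past the threshold (0.0225% of all genes passed) and all 13 at an unadjusted p under 0.05 (100%, against 9.26%). In females their level did not overlap between the genotypes, so the covariate cannot cleanly separate it from genotype. Their part in the members' differences was not tested. With that level as a covariate, the median difference of the members was -0.004 over both sexes and 0.029 in females, as given above. With the choroid plexus level it was 0.027 and 0.057. Microglia markers (9 of 10 tested) had a mean level of 7.36 to 7.52 in wild type and 7.40 to 7.60 in Ciz1-/-.

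**Figure D4:**
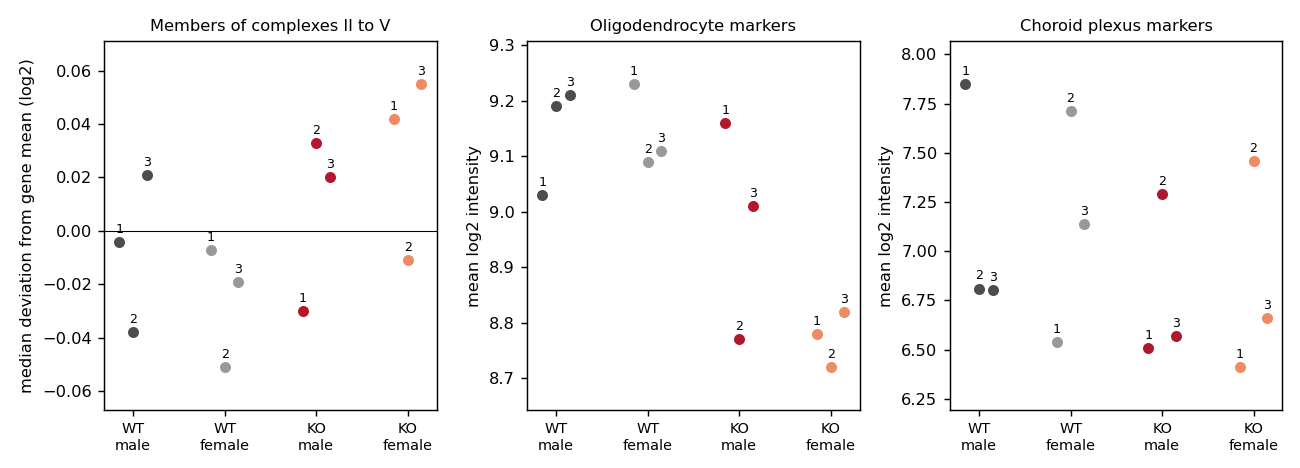
Each array (point, numbered by replicate) by group. The left panel gives the median deviation of the 48 members from their means (log2), the middle panel the mean log2 intensity of 13 oligodendrocyte markers and the right panel that of 16 choroid plexus markers; in the middle panel the Ciz1-/- females (8.72 to 8.82) and Ciz1-/- male 2 (8.77) lie below all other arrays, and in the left panel Ciz1-/- females 1 and 3 are highest.

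On the array 6 members had 2 rows with their symbol alone, and the rows did not always move alike. Atp5d (0.01 and 0.06), Atp5g2 (0.09 and 0.07) and Atp5h (0.07 and 0.03) gave like values in the brighter row, used above, and in the dimmer one. For Atp5e the brighter row gave 0.12 (SE 0.09 in a fit over all rows) and the dimmer -0.12 (SE 0.06), and in females 0.33 and -0.05. For Cox7b the rows gave -0.04 (SE 0.06) and 0.20 (SE 0.08), and for Cox5b 0.06 (SE 0.05) and 0.17 (SE 0.08). The rows of Cox7b stood at a mean of 11.59 and 7.56 and those of Cox5b at 10.89 and 6.51. Which transcripts each row detects was not known here, and near-identical copies of these genes in the genome could share probes.

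**Figure D5:**
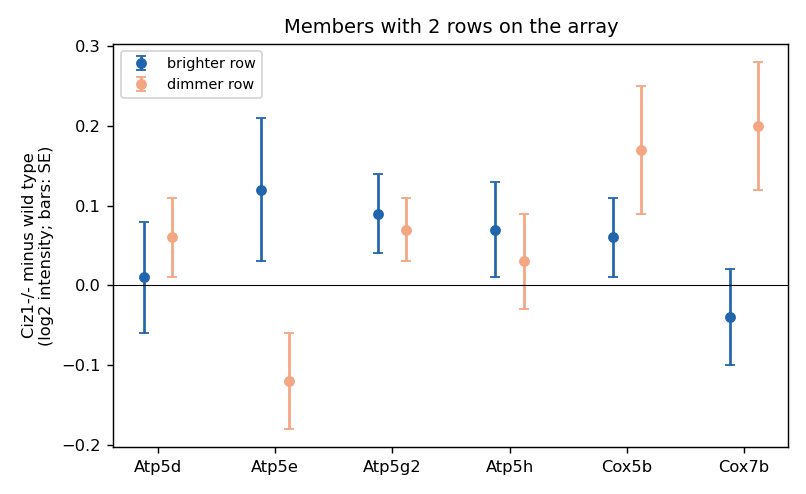
Difference between Ciz1-/- and wild type over both sexes (log2 intensity, with its SE as bars) for the 6 members with 2 rows; blue marks the brighter row, which the rule uses, and orange the dimmer one. The rows of Atp5e and Cox7b lie on opposite sides of 0.

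Other genes of the pathway were read from lists. Of the 37 tested assembly factors of complexes II to V, 0 passed over both sexes and 4 had an unadjusted p under 0.05 (10.8%, all 4 higher, against 9.26% of all genes); 28 were higher and 9 lower, with a median of 0.048. Ttc19, a factor of complex III, differed by 0.13 (SE 0.04; limma adjusted p = 0.462), at 8.75 to 8.88 in wild type and 8.89 to 9.07 in Ciz1-/-, so that the groups did not overlap. It was the 1 assembly factor of 37 without overlap (2.70%, against 0.550% of all genes). Higd2a, which helps to assemble complex IV and supercomplexes, differed by 0.14 (SE 0.05; limma adjusted p = 0.50). Of 33 tested genes listed under complex I, 0 passed and 5 had an unadjusted p under 0.05. These 5 (15.2%, against 9.26% of all genes) were all higher. In the list 28 were higher and 5 lower, with a median of 0.050. Ndufa4 was counted in this list, and whether its product belongs to complex I was not checked here. Ndufs4 stood at 10.62 to 10.84 in wild type and 10.92 to 11.12 in Ciz1-/-, a difference of 0.28 (SE 0.05; limma adjusted p = 0.154), and Ndufa3 differed by 0.12 (SE 0.04).

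Of 17 tested genes of the citrate cycle and pyruvate dehydrogenase, 0 passed and 3 had an unadjusted p under 0.05 (17.6%, against 9.26% of all genes), 1 higher and 2 lower; 10 were higher and 7 lower, with a median of 0.007. Suclg2, a subunit of the enzyme that makes succinate, differed by -0.15 (SE 0.05; limma adjusted p = 0.441) and Pdha1, the E1 alpha subunit of pyruvate dehydrogenase, by -0.13 (SE 0.04; limma adjusted p = 0.462). Among 26 genes of mitochondrial biogenesis and carriers, 0 passed (limma) and 0 had an unadjusted p under 0.05, where 9.26% of all genes did, with 9 higher and 17 lower and a median of -0.013. Ppargc1b, a coactivator of mitochondrial genes, differed by 0.09 (SE 0.04) and Yy1 by -0.07 (SE 0.04). The median of the members of complexes II to V lay between those of complex I and of the citrate cycle, and the differences between these medians were not tested.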

How the data were processed

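The authors deposited each value as a linear intensity, an RMA summary of core exons from Expression Console, per the labels. The submitters' processing notes list Transcriptome Analysis Console 3.0 as well. No build or test is given in the sources used here. Of 41345 rows, 23521 had 1 gene symbol in GEO's platform annotation, 1814 several and 16010 none. For each of 22180 genes the row with the highest mean log2 intensity was used, log2 being taken first, with no pseudocount and no filter. limma 3.58.1 (R 4.3.3) fitted a mean for each of the 4 groups over 12 arrays, with eBayes; the tests were two-sided, with Benjamini-Hochberg adjustment over all genes. The fit over both sexes was run on simulated data with planted differences larger than any member showed there. That run does not cover smaller differences or the other contrasts. Lists are described by counts and medians, with no set test. Members and lists were chosen with earlier results of these data known. Genes named followed a rule: the smallest p in each complex, contrast and direction, all paralogue sets and complex II, and 2 genes of each other list; further members are given to account for the family. Replicates carry numbers only as names. Litters are not given, so p-values measure the spread between these 12 mice. The number of arrays limits precision. Promoter sequences come from RefSeq (GRCm38.p6), matched by gene ID. Alternatives were other priors, filters, row rules, normalizations, weights, covariates and leaving out each array.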

Additional observations from a re-analysis of the deposited data

How the results depend on the processing

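In the alternatives run, 0 members passed in any contrast, leaving out each array in turn included. Of 933 values of named members under these alternatives, 0 passed (smallest adjusted p 0.184, Cox7b2 in females with array weights) and 22 had the sign turned. With the mean of all rows Cox7b differed by 0.08. With the oligodendrocyte level as a covariate, chosen after seeing the data, Atp5g1 differed by 0.22, Cox4i1 by -0.01, Cox6a2 by -0.10, Cox6b1 by -0.12, Cox6b2 by -0.01 and Cox8c by 0.05, and the median of the members over both sexes was -0.004. Leaving out 1 array gave ranges that reached or crossed 0 for Atp5g1 (-0.12 to 0.00), Cox6a2 (-0.07 to 0.12), Cox6b1 (-0.03 to 0.07), Cox6b2 (0.00 to 0.14), Cox7a2 (-0.05 to 0.01), Cox7a2l (-0.07 to 0.01), Cox8c (-0.05 to 0.02), Cox4i1 (0.00 to 0.06) and Cox7b (-0.07 to 0.00), all over both sexes. Single arrays also moved Sdhb over both sexes (0.02 without Ciz1-/- female 1), Uqcrq (0.04 without wild-type male 2) and, for sex, Cox6b2 (0.12 without Ciz1-/- female 2) and Atp5o (-0.08 without Ciz1-/- female 1). The median of the members ranged from -0.028 (without wild-type male 2) to 0.025 in males and from 0.021 (without Ciz1-/- male 1) to 0.081 for the difference between the sexes. The cause of these shifts was not tested.

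The number of genes called among all genes moved more. With an intensity trend it was 18 over both sexes, 26 in females, 2 for the interaction and 15 for sex. Over genes above the median brightness, which keeps 42 members, it was 14, 16, 2 and 13. With 16 added before log2 it was 8 in females and 1 for the interaction, with the choroid plexus covariate 3 over both sexes, and with the oligodendrocyte covariate 2 over both sexes, 2 in males and 1 in females. With the 6 arrays of males alone it was 2. Leaving out 1 array gave 3 to 8 over both sexes, with 8 without wild-type female 3 and 3 without wild-type males 2 or 3, wild-type female 2, Ciz1-/- male 3 or Ciz1-/- females 1 or 2. In males it gave 2 to 4, with 2 without wild-type males 1 or 3 or Ciz1-/- male 2 and 3 without wild-type male 2 or Ciz1-/- male 3. In females it gave 3 to 7, with 3 without wild-type female 1 or Ciz1-/- females 1 or 3, and for the interaction 0 to 1, with 1 without wild-type female 1. No paired analysis was possible because the labels give no replicate numbers that pair mice across groups.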
